A study of Mus musculus with 30 samples.

Results

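The lysosome is the acidic compartment in which cells break down proteins, sugar chains and lipids, and 32 genes of this compartment were followed here across 2 tissues of lean and leptin-deficient mice from a study of Shp2-mutant BM grafts. The genes were chosen by symbol, and all 32 were found in both count tables. These listed 13353 genes in bone marrow (BM) and 17059 in F4/80+ cells sorted from adipose tissue (adipose tissue macrophages, ATM). Shares of all genes given below are over these listed genes unless another set is named. By role they comprised 9 cysteine proteases, 4 other proteases or thioesterases, 7 glycosidases, 3 sphingolipid hydrolases or activators, 7 membrane proteins, and the pair Tfeb and Grn. The filter on low counts removed no listed gene at all, and the smallest gene total was 55 in BM and 54 in ATM. Its outcome for the 32 was therefore set by how the counts were deposited. None of the 32 was at 0 in any library, and the smallest count was 28 in BM and 315 in ATM.

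Each tissue was sequenced in 15 libraries, 3 for each of 5 groups, and the labels describe the 3 as separate mice. Per the labels, recipients were lethally irradiated and given CD45.2 BM cells from Shp2 E76K/+;LysM-Cre+ donors mixed with as many CD45.1 competitor cells from Boy/J donors. The WT libraries are labelled wild type, with no drug listed. The labels name WT recipients but give no donor for single libraries. For BM the study describes its lean group as carrying the mutant graft, whereas for ATM its descriptions differ on whether the cells of the comparison group were mutant or WT, so that in ATM Vehicle and WT may differ in the graft as well. The genotype field reads C57BL/6J for every library, and the host genotype of the other groups comes from the protocol text. These 4 groups were leptin-deficient Ob/Ob recipients, which from 8 weeks after transplantation received for 30 days vehicle (Vehicle), the GLP-1R agonist beinaglutide at 3 mg/kg under the skin (GLP1RA), an anti–IL-17A antibody at 200 µg per mouse into the peritoneum 3 times weekly (AntiIL17A), or both drugs (Combo). Mice of both sexes were used, at 12 to 14 weeks of age per the labels. Given the 8 weeks after transplantation and the 30 days of treatment, that need not be the age at collection. LysM-Cre acts in myeloid cells, and the Boy/J cells mixed into the graft lack the Shp2 change. Vehicle and WT differed at least in the leptin genotype of the host and in the vehicle given.

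Lysosomal proteases are made as inactive precursors and become active in the acidic lumen. Papain-type cathepsins and legumain cut proteins and trim antigens, glycosidases remove sugars one by one from glycoproteins and glycolipids, and saposins present lipids to their hydrolases. Macrophages are rich in these enzymes, and transcription factor EB (TFEB) drives many of the genes through a short palindromic promoter element that contains the E-box CACGTG.

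Because TFEB binds that element, the promoters of the genes were read for its letters. RefSeq promoter windows of the build GRCm38.p6, from 250 bases before to 50 after each start, were matched for 29 of the 32 genes, and a gene with several windows was counted once. Asah1, Ctsb and Ctsh had no entry. CACGTG, which reads the same on both strands, was present in 11 of the 29 (37.9%): Ctsa, Ctsd, Ctsf, Ctsl, Lgmn, Lamp1, Gla, Glb1, Gaa, Mcoln1 and Cln3. Of all 27025 genes with a window, 8.09% held it. The longer TCACGTGA, which contains the E-box, was found in Ctsa, Ctsd, Gla, Mcoln1 and Cln3 (17.2%, against 1.12% of all genes), and a still longer TFEB-type element in Cln3 alone (0.37% of all genes). The 250 bases before the start are shown for Lamp1, which held most copies, for Ctsd and Gla, which held the longer element, for Lgmn with a single E-box, and, as windows without the letters, for Ctss and Man2b1, which were among the genes with the largest changes in BM and ATM. Capitals mark CACGTG with the flanking letters of a longer element where one was present, and each sequence runs 5′ to 3′ on the strand of its gene. The windows were chr8:13158911-13159160 on the plus strand (Lamp1), chr7:142387828-142388077 on the minus strand (Ctsd), chrX:134601006-134601255 on the minus strand (Gla), chr12:102439093-102439342 on the minus strand (Lgmn), chr3:95526536-95526785 on the plus strand (Ctss) and chr8:85083019-85083268 on the plus strand (Man2b1).
Lamp1: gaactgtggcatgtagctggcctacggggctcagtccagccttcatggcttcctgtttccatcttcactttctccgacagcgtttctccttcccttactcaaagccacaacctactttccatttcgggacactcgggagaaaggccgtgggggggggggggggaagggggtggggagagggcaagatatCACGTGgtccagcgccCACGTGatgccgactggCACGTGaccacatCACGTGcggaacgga
Ctsd: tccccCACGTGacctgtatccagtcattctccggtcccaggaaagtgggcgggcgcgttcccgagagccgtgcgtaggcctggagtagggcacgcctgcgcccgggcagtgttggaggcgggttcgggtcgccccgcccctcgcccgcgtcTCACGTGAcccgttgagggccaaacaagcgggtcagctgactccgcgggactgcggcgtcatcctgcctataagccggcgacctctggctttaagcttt
Gla: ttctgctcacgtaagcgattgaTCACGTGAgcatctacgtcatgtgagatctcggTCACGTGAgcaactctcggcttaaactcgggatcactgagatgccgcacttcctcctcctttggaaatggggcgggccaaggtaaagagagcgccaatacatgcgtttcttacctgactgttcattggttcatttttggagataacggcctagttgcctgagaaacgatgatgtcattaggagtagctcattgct
Lgmn: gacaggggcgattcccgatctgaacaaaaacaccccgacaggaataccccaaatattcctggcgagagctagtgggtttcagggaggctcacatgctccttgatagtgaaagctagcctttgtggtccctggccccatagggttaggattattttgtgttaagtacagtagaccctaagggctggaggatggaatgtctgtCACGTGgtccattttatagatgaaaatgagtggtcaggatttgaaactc
Ctss: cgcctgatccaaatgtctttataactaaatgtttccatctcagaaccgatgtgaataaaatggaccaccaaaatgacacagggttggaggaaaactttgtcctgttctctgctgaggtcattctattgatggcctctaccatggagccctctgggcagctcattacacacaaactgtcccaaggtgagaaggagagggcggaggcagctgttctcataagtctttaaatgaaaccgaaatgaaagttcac
Man2b1: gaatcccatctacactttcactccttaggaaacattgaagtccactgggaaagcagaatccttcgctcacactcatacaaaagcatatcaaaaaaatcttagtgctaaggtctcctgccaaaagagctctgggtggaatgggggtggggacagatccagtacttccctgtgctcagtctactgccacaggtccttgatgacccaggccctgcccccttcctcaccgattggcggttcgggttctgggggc
The Lamp1 window held 4 E-boxes, at bases 190, 206, 223 and 236 counted from its left end. Both copies in Gla, at bases 24 and 57, were flanked to the longer element, while 1 of the 2 in Ctsd was. Ctsa, Lgmn and Cln3 each had another window, further upstream along the gene, that held no CACGTG. The Lgmn window shown is the downstream one. A match of letters is a description of the window and says nothing about occupancy by a factor.

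Libraries held 31086184 to 39925495 counts in BM and 24876074 to 45300263 in ATM. Replicates in BM lay close together (biological coefficient of variation 3.51%), except that WT replicate 1 stood apart from the other 2 WT libraries, and ATM libraries varied more (32.5%). Xist stood at 998 normalized counts or more in Vehicle and Combo of both tissues and at 113 or less elsewhere, and the Y-linked Ddx3y was lower in those groups, at 147 to 743 in BM against 1460.0 to 2015. The sex of the cells and the group cannot be told apart, which touches the X-linked Gla and Lamp2 directly. Adgre1, the gene for the F4/80 sort marker, stood in ATM at 1002 to 1738 in Vehicle, 6387 to 7619 in WT and 12445 to 29674 in the treated groups. Summed neutrophil markers (9 of 10 listed genes) reached 726456 to 769111 normalized counts in ATM Vehicle and 427277 to 437150 in Combo, against 8199 to 15834 in the other groups. Epididymis markers (6 of 8) summed to 530932 to 544666 in ATM WT and at most 7696 elsewhere, and pancreatic acinar markers (7 of 8) to 31626 to 32276 in ATM Combo and at most 916 elsewhere. Endothelial and stromal markers (7 of 7) in ATM summed to 204368 to 214061 in Vehicle and 681667 to 694923 in GLP1RA. They stood at 451472 to 477085 in WT and 381750 to 438636 in AntiIL17A and Combo. Adipocyte markers (6 of 6) were highest in ATM Vehicle (133667 to 141853, at most 43454 elsewhere in ATM). Erythroid markers (4 of 6) were also highest there (222681 to 225806, at most 185034 elsewhere in ATM). The part of such cells in any result below was not tested. In these bulk samples fewer cells of a type and less RNA per cell cannot be told apart.

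The 32 genes together took 0.85 to 0.854% of all counts in BM Vehicle, more than in any other BM group. The other BM shares were 0.686 to 0.723% in WT, 0.675 to 0.676% in GLP1RA, 0.711 to 0.718% in AntiIL17A and 0.659 to 0.665% in Combo. In ATM the share was 1.71 to 1.78% in WT and 1.61 to 1.63% in Vehicle, and it was 4.29 to 4.37% in GLP1RA, 5.98 to 6.07% in AntiIL17A and 3.51 to 3.59% in Combo. No 2 groups overlapped in ATM, and Vehicle was the group with the highest share in BM and the lowest in ATM. Summed macrophage markers (11 genes) in ATM stood at 142978 to 152297 in WT, 91212 to 97853 in Vehicle, 321315 to 334093 in GLP1RA, 465358 to 470434 in AntiIL17A and 357431 to 361758 in Combo, and none of the 11 was at 0. Lyz2, the lysozyme gene of myeloid cells including neutrophils, contributed a large part of that sum in most groups, and without it the other 10 stood in ATM at 74355 to 79022 in WT, 61391 to 67304 in Vehicle and 121054 to 181488 in the treated groups. In BM the sum over 11 was 491118 to 500675 in WT and 176458 to 177825 in Vehicle, but without Lyz2 the order turned, with 46882 to 48373 in WT and 56231 to 56653 in Vehicle, 39053 to 39578 in GLP1RA, 55479 to 55727 in AntiIL17A and 68299.8 to 68767 in Combo. When each gene was given equal weight, as its log2 level relative to its own average in the tissue, the mean over the 32 genes in BM was 0.35 ± 0.0055 (SD, n = 3) in Vehicle and -0.20 ± 0.0031 in GLP1RA. On that scale ATM stood at -0.55 ± 0.026 in WT, -0.63 ± 0.025 in Vehicle and 0.66 ± 0.016 in AntiIL17A. Every one of the 32 genes differed among the 5 groups in both tissues (edgeR quasi-likelihood F test, largest adjusted p 0.00212 in BM and 0.00345 in ATM), as did 95.1% of all genes in BM and 73.5% in ATM.

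**Figure D1:**
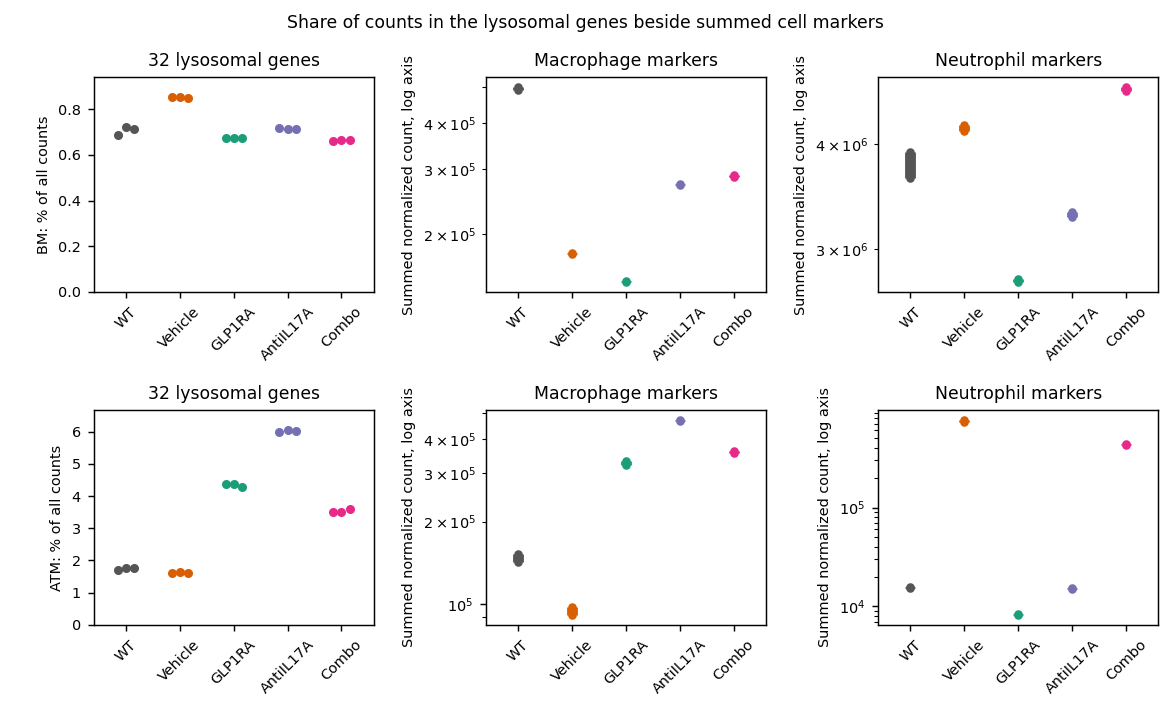
The left panels give the percentage of all counts in the 32 lysosomal genes, 1 point per library, and the middle and right panels the range over 3 libraries of the summed normalized counts of macrophage and neutrophil markers on log axes, with BM above and ATM below. In ATM the lysosomal share and the macrophage markers were lowest in Vehicle and highest in AntiIL17A, while neutrophil markers were highest in Vehicle and Combo. In BM much of the macrophage sum came from Lyz2.

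**Figure D2:**
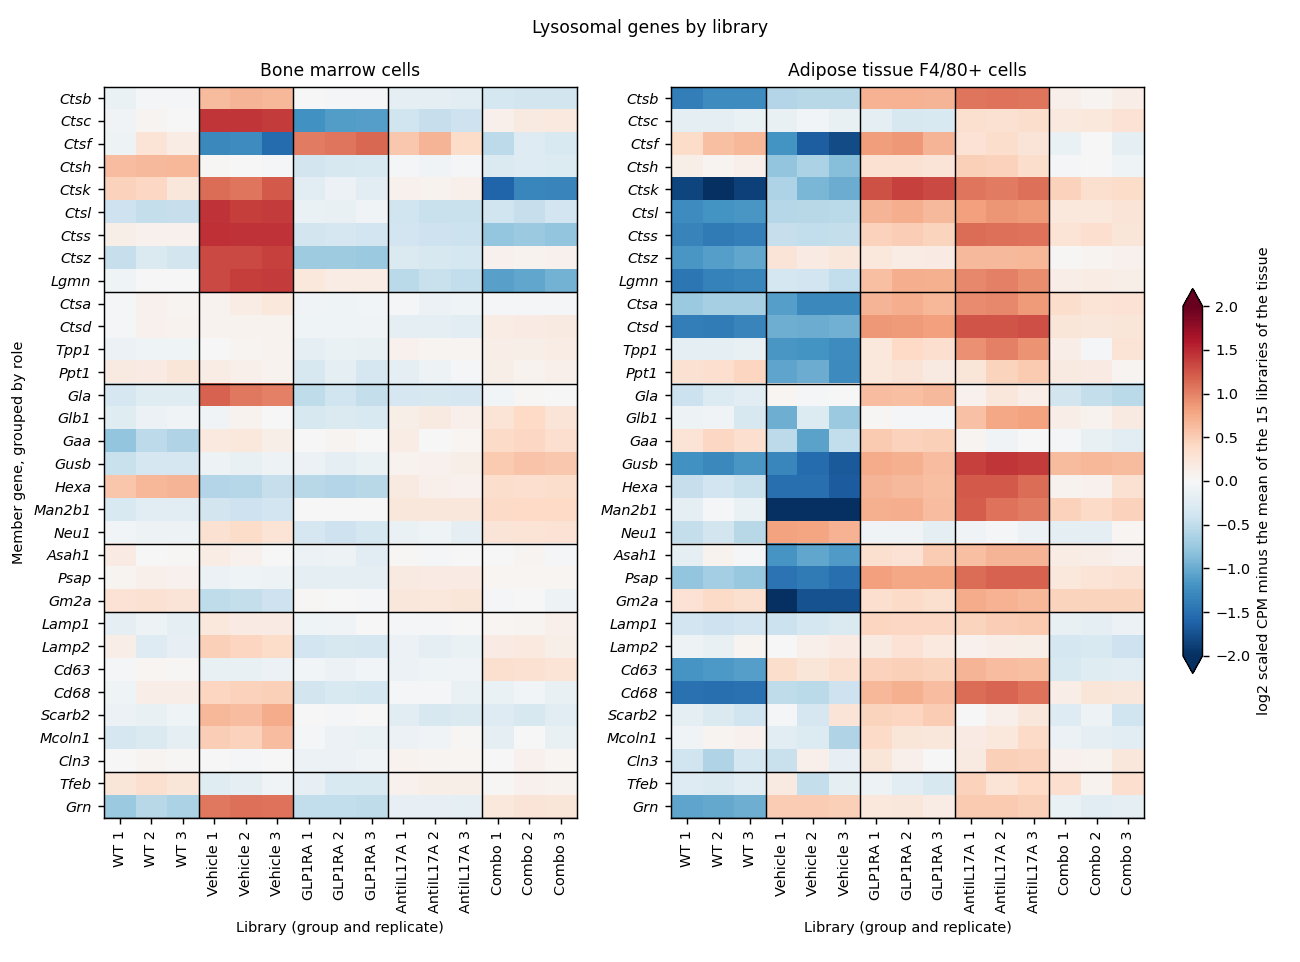
Each cell gives the log2 level of 1 gene in 1 library, less the average of that gene in the tissue, with genes in rows grouped by role and libraries in columns. In BM the Vehicle columns stood out mainly in the cysteine proteases, Gla and Grn. In ATM the treated groups stood above Vehicle for most proteases and hydrolases of each role. Exceptions included Neu1, below Vehicle in every treated group, and Gla in Combo.

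Between Vehicle and WT in BM, 9 of the 32 lysosomal genes were called, meaning an edgeR adjusted p below 0.05 with a log2 fold change beyond 1 in either direction, where 19.5% of all genes were called. Of these, 7 were higher in Vehicle (Ctsl, Grn, Ctsz, Ctsc, Lgmn, Ctss and Gla) and 2 were lower (Ctsf and Hexa), beside 9.44% and 10% of all genes. By adjusted p alone, 29 (76.6% of all genes) passed, 20 higher and 9 lower. The cysteine proteases gave 5 of the 7 higher calls. Median log2 fold changes were 1.36 over the 9 cysteine proteases, 0.07 over the 4 other proteases or thioesterases, 0.26 over the 7 glycosidases, -0.18 over the 3 sphingolipid genes and 0.39 over the 7 membrane proteins, beside 0.30 over the 32 and -0.02 over all genes. With library totals in place of TMM scaling the medians were 0.17 and -0.14. Without WT replicate 1, the library that stood apart, 9 genes were again called.

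In BM the 3 treated groups were compared with the same Vehicle libraries, so these comparisons are not independent of each other or of Vehicle against WT. In GLP1RA 9 lysosomal genes were called (16.7% of all genes), 1 higher and 8 lower. In AntiIL17A 9 were called (16.1%), 1 higher and 8 lower, and in Combo 8 (17.7%), 0 higher and 8 lower. By adjusted p alone, 29 (72.8% of all genes), 26 (73%) and 28 (73.8%) of the 32 passed in the 3 comparisons. The calls again lay mostly in the cysteine proteases, with 6, 6 and 7 of the 9 lower in GLP1RA, AntiIL17A and Combo. No membrane protein, sphingolipid gene or member of the other proteases was called in any of these 4 BM comparisons. The median over the 32 genes was -0.32, -0.22 and -0.09 in GLP1RA, AntiIL17A and Combo, and over all genes it was 0.01, 0.01 and 0.02. With library totals in place of TMM scaling the medians were -0.085, -0.052 and -0.11 over the 32 and 0.24, 0.18 and -0.0014 over all genes. The Combo median was -0.16 without Vehicle replicate 3. Of the 11 macrophage markers in BM, 4 higher and 2 lower were called in Vehicle against WT, and against Vehicle 1 higher and 2 lower in GLP1RA, 1 higher and 5 lower in AntiIL17A and 1 higher and 6 lower in Combo. They did not move as one. Fcgr1 stood at 7548 to 7664 normalized counts in BM Vehicle and 212 to 739.7 in the other groups, and Cd14 at 5394 to 5659.9 against 352 to 1074. Mrc1, the mannose receptor gene, was instead lowest in Vehicle, at 233 ± 19.9 (SD, n = 3) against single libraries at 596 to 2037, and Lyz2 stood at 119911 to 121594 in Vehicle, 444237 to 453100 in WT and 109086 to 220700 in the treated groups. Markers of other BM cells differed too. B cell markers (8 of 8 listed genes) summed to 43542 to 44905 in WT, 12573 to 13311 in Vehicle, 4094 to 4104 in GLP1RA, 14103 to 14462 in AntiIL17A and 4409.6 to 4529 in Combo. Erythroid markers (4 of 6) were highest in GLP1RA (71869 to 73522) and lowest in Vehicle (22971 to 23248), and neutrophil markers (9 of 10) lowest in GLP1RA (2740650 to 2763970) and highest in Combo (4618100 to 4673880), with Vehicle at 4146480 to 4209680 and WT at 3640070 to 3908400. Their part in the differences was not tested.

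**Figure D3:**
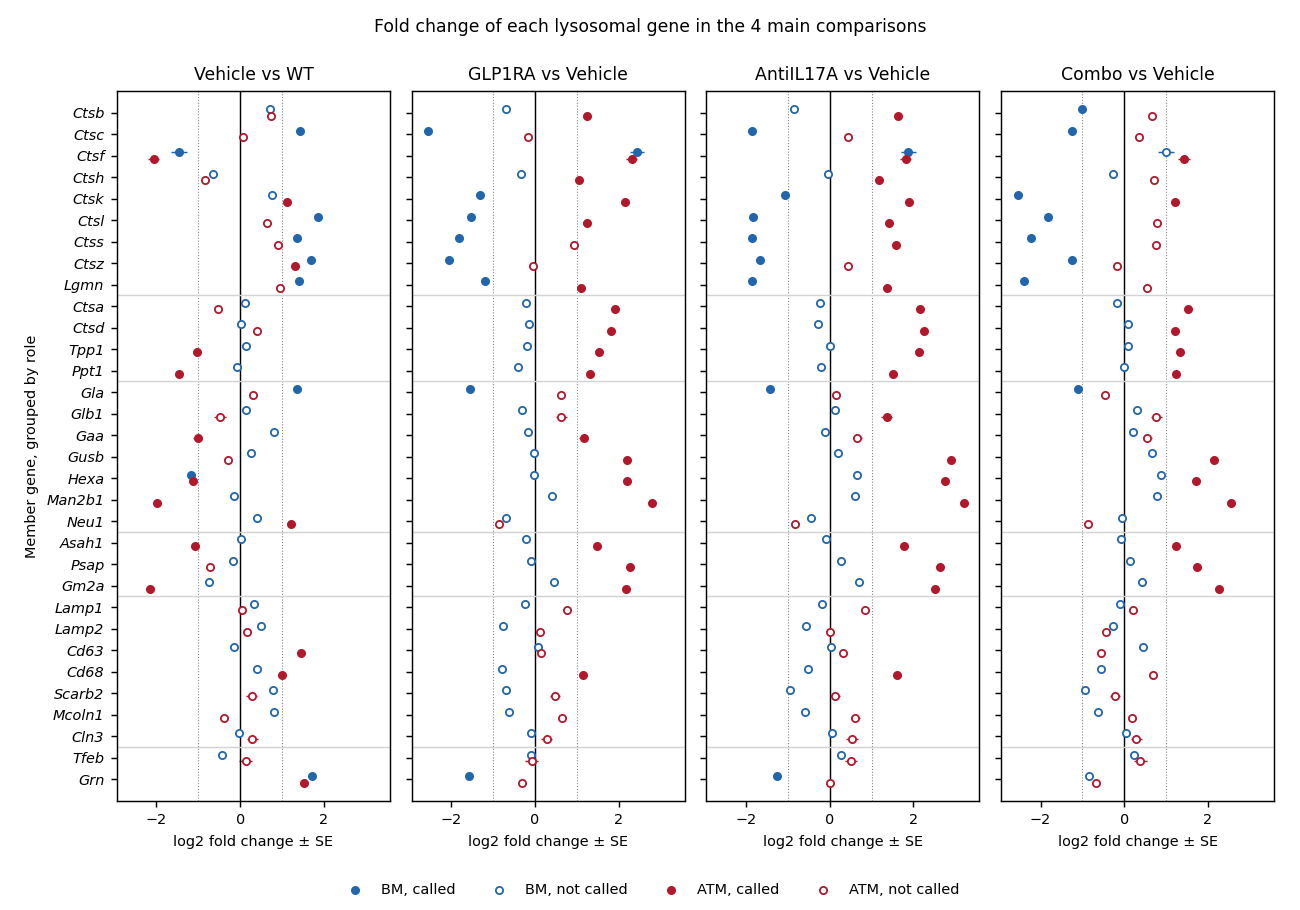
Log2 fold change of each of the 32 lysosomal genes (rows, grouped by role) in Vehicle against WT and in each treated group against Vehicle, in BM (blue) and ATM (red), with bars for the SE, filled points for called genes and dotted lines at the fold limit. In BM the cysteine proteases other than Ctsf and Ctsh lay to the right in Vehicle against WT and to the left after treatment, up to 1.85 and down to -2.56, while in ATM most genes lay to the right after treatment, up to 3.22 for Man2b1.

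Single genes are given below as normalized counts, that is, counts scaled by TMM to the mean library size of the tissue, for replicates 1 to 3 of each group. Cathepsin S, the invariant chain protease of antigen-presenting cells, is encoded by Ctss. Ctss counted 10474, 10189 and 10215 in WT, 26681, 26241 and 26160.4 in Vehicle, 7446, 7630.5 and 7356 in GLP1RA, 7368, 7224 and 7176 in AntiIL17A, and 5618, 5770.1 and 5603 in Combo. All Vehicle libraries lay above all others, and all Combo libraries lay below all others. The log2 fold change was 1.36 ± 0.02 (SE) in Vehicle against WT (adjusted p = 7.61e-37), and against Vehicle it was -1.82 ± 0.02 in GLP1RA, -1.86 ± 0.02 in AntiIL17A and -2.22 ± 0.02 in Combo (largest adjusted p = 2.78e-41). Cathepsin L, an endopeptidase that also processes other cathepsins, showed a simpler pattern. Ctsl counted 1721, 1651 and 1671 in WT, 6203, 5980.3 and 6026 in Vehicle, 2084, 2066 and 2177 in GLP1RA, 1736, 1686 and 1674 in AntiIL17A, and 1728, 1663 and 1762 in Combo. Vehicle stood apart, GLP1RA came next, and WT, AntiIL17A and Combo overlapped. Ctsl rose by 1.85 ± 0.04 in Vehicle (adjusted p = 3.40e-35), the largest rise among the 32 genes in that comparison, and against Vehicle it was -1.53, -1.84 and -1.82 in GLP1RA, AntiIL17A and Combo. Of the Ctsl exon length, 26.8% also lies in exons of other annotated genes, and reads there were counted for each gene.

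Legumain, encoded by Lgmn, cuts after asparagine and activates some cathepsins. Lgmn counted 2144, 2267 and 2292 in WT, 5695, 5958 and 5975 in Vehicle, 2644, 2508 and 2509 in GLP1RA, 1570.3, 1672 and 1618 in AntiIL17A, and 1076, 1111 and 1175 in Combo. The groups did not overlap, in the order Combo, AntiIL17A, WT, GLP1RA and Vehicle from low to high. Lgmn fell by 2.39 ± 0.04 in Combo against Vehicle (adjusted p = 2.28e-37), beyond its rise of 1.40 ± 0.04 in Vehicle against WT. Cathepsin C (Ctsc) activates the granule serine proteases of neutrophils and cytotoxic lymphocytes. Ctsc counted 4224, 4634 and 4459.5 in WT, 11955, 12019 and 11768 in Vehicle, 1929, 2057 and 2070.4 in GLP1RA, 3372, 3221 and 3349 in AntiIL17A, and 4790.2, 5031 and 5109.9 in Combo. No groups overlapped, with GLP1RA lowest and Vehicle highest. The change in GLP1RA, -2.56 ± 0.03 (adjusted p = 2.72e-41), was the largest fall among the 32 genes in any BM comparison with Vehicle. Cathepsin Z (Ctsz) is a carboxypeptidase. Ctsz counted 4695, 5275 and 5012 in WT, 16074, 16074 and 16556 in Vehicle, 3928, 3950.2 and 3867 in GLP1RA, 5248, 5180 and 5030.2 in AntiIL17A, and 6859, 6754 and 6823 in Combo. Vehicle again stood above all others and GLP1RA below them, while WT and AntiIL17A overlapped. Ctsz rose by 1.70 ± 0.03 in Vehicle (adjusted p = 6.86e-37) and was -2.05, -1.66 and -1.25 in GLP1RA, AntiIL17A and Combo against Vehicle.

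Cathepsin K (Ctsk), the collagenase of osteoclasts, was one of the low cysteine proteases. Ctsk counted 409, 395 and 349.9 in WT, 649, 624 and 698 in Vehicle, 258, 273 and 255 in GLP1RA, 315, 314 and 319 in AntiIL17A, and 97.7, 121 and 119 in Combo. The groups did not overlap, and Combo was lowest. Vehicle against WT gave 0.77 ± 0.08, short of the fold limit (adjusted p = 7.22e-11), and Combo against Vehicle gave -2.54 ± 0.10 (adjusted p = 1.28e-24). Cathepsin F (Ctsf) went the other way. Ctsf counted 90.9, 118 and 108 in WT, 39.7, 40.8 and 33.6 in Vehicle, 201, 204 and 216 in GLP1RA, 141, 156 and 126 in AntiIL17A, and 67.9, 81.5 and 79.3 in Combo. These were the lowest levels among the 32 genes in BM, with Vehicle below every other library and GLP1RA above. Ctsf fell by 1.46 ± 0.18 in Vehicle (adjusted p = 2.76e-09) and rose by 2.43 ± 0.17 in GLP1RA and 1.88 ± 0.17 in AntiIL17A. In Combo it was 1.00 ± 0.19, at the edge of the fold limit and not called. The remaining cysteine proteases were Ctsb, called only in Combo against Vehicle (-1.02 ± 0.02), and Ctsh, called in no BM comparison.

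Among the other BM proteases, cathepsin D (Ctsd) is the main aspartic protease of the lysosome. Ctsd counted 28399, 30556 and 30258 in WT, 30185, 30295 and 30496 in Vehicle, 27239, 27346 and 27659 in GLP1RA, 25191, 25298 and 25068 in AntiIL17A, and 32104, 32393 and 32725 in Combo. WT and Vehicle overlapped, AntiIL17A was lowest and Combo highest, all within a narrow range. Vehicle against WT gave 0.03 ± 0.02 (adjusted p = 0.266), and treated groups differed from Vehicle by -0.15, -0.27 and 0.10. Of the Ctsd exon length 34.4% is shared with another annotated gene. Of the glycosidases, alpha-galactosidase A (Gla), which removes terminal galactose from globosides, was called in all 4 comparisons. Gla counted 511, 544 and 543 in WT, 1466, 1332 and 1299 in Vehicle, 453, 489.9 and 461 in GLP1RA, 509, 515 and 512 in AntiIL17A, and 622, 652 and 639.5 in Combo. Vehicle stood above all other libraries, and GLP1RA below them. Gla rose by 1.36 ± 0.06 in Vehicle (adjusted p = 2.06e-22) and was -1.54, -1.42 and -1.10 against Vehicle in the treated groups. Hexa encodes the alpha chain of beta-hexosaminidase, which degrades GM2 ganglioside. Hexa counted 7244, 7823 and 7974 in WT, 3314, 3342 and 3618 in Vehicle, 3394, 3311 and 3364 in GLP1RA, 5587, 5336 and 5288 in AntiIL17A, and 6305, 6266 and 6316 in Combo. Vehicle and GLP1RA overlapped at the low end, and WT was highest. Hexa fell by 1.17 ± 0.03 in Vehicle (adjusted p = 1.79e-28), gave -0.03 ± 0.04 in GLP1RA (adjusted p = 0.473) and was 0.66 and 0.88 in AntiIL17A and Combo.

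Progranulin (Grn), a secreted protein that is also delivered to lysosomes, moved with the cysteine proteases in BM. Grn counted 9274, 10491 and 10005 in WT, 32076, 33284 and 33048 in Vehicle, 10993, 10992 and 10934 in GLP1RA, 13749.9, 13800.4 and 13691 in AntiIL17A, and 17838, 18441 and 18256 in Combo. No groups overlapped, from WT at the bottom to Vehicle at the top. Grn rose by 1.73 ± 0.03 in Vehicle (adjusted p = 1.33e-34) and was -1.58, -1.25 and -0.85 against Vehicle in GLP1RA, AntiIL17A and Combo. Tfeb encodes the transcription factor introduced above. Tfeb counted 1914, 2027 and 1907 in WT, 1365, 1422 and 1540.3 in Vehicle, 1447, 1310.3 and 1311 in GLP1RA, 1721, 1760.2 and 1755 in AntiIL17A, and 1639, 1712 and 1695 in Combo. WT was highest, and GLP1RA and Vehicle overlapped at the low end. Tfeb differed from WT by -0.44 ± 0.05 in Vehicle (adjusted p = 1.01e-10), a direction opposite to that of the called cysteine proteases other than Ctsf. These are RNA levels, and the activity of the factor was not measured. Among membrane proteins, Lamp1 is a major glycoprotein of the lysosomal membrane. Lamp1 counted 13033, 13724 and 12921 in WT, 17049.6, 16538 and 16479 in Vehicle, 13911, 14009 and 14629 in GLP1RA, 14485, 14540.3 and 14773 in AntiIL17A, and 15188, 15357 and 15852 in Combo. Vehicle stood above the other groups, WT below them. The differences were small, 0.34 ± 0.03 in Vehicle against WT and -0.23, -0.19 and -0.11 against Vehicle. Cd68 encodes macrosialin, a macrophage endolysosomal protein. Cd68 counted 2286, 2645 and 2669 in WT, 3263, 3324 and 3361 in Vehicle, 1868, 1956 and 1908 in GLP1RA, 2378, 2368 and 2214 in AntiIL17A, and 2209.9, 2341 and 2189 in Combo. Vehicle was again highest, and WT, AntiIL17A and Combo overlapped. Cd68 was 0.39 ± 0.04 in Vehicle against WT and -0.79, -0.52 and -0.56 after treatment, without passing the fold limit.

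**Figure D4:**
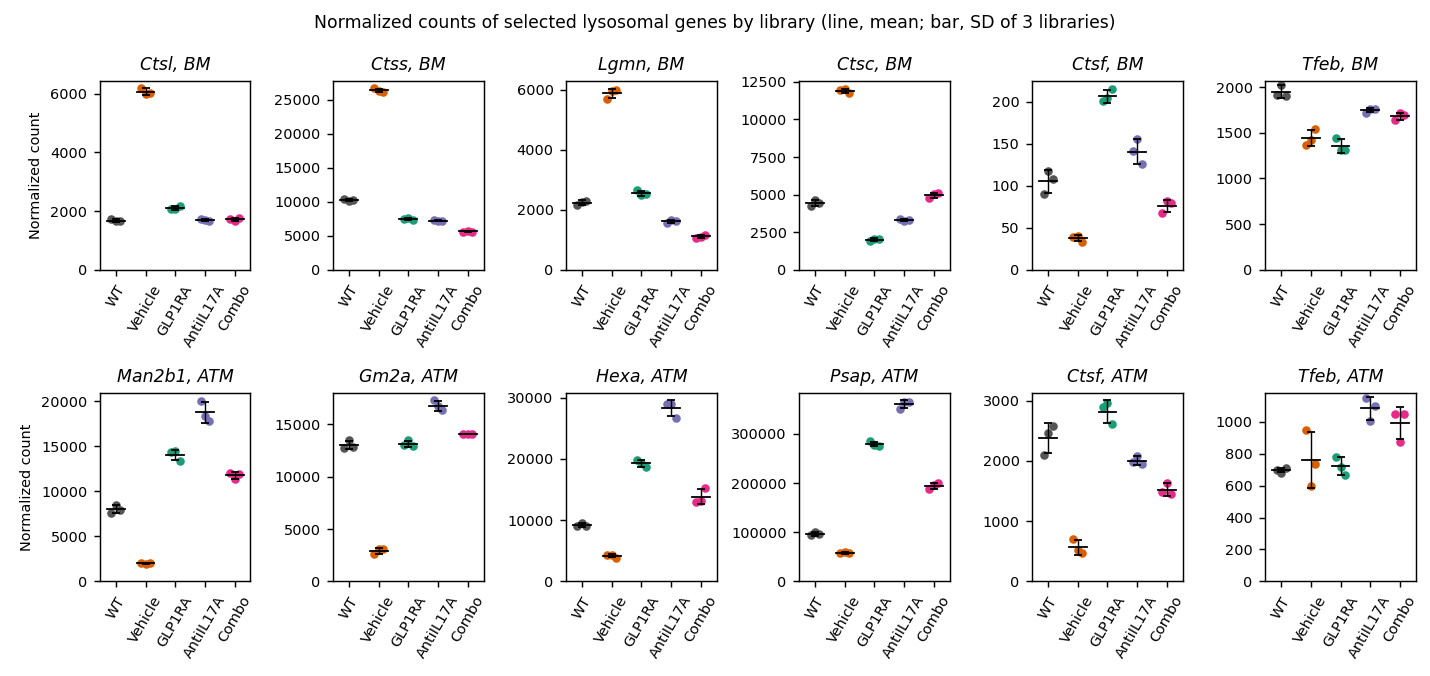
Normalized counts (linear y axes from 0) of selected lysosomal genes, 1 point per library, by group in BM (top) and ATM (bottom), with lines at the mean and bars for the SD of 3 libraries. Vehicle points lay highest for Ctss and Ctsl in BM, and Vehicle points lay lowest for Man2b1 and Psap in ATM.

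In ATM, 14 of the 32 genes were called between Vehicle and WT (35.4% of all genes), 6 higher and 8 lower. By adjusted p alone, 27 (56.9% of all genes) passed. The higher genes were Grn, Cd63, Ctsz, Neu1, Ctsk and Cd68, and the lower ones were Gm2a, Ctsf, Man2b1, Ppt1, Hexa, Asah1, Tpp1 and Gaa. The median over the 32 was 0.09, beside -0.21 over all genes. With library totals in place of TMM scaling, the median was -0.65 over all genes and -0.34 over the 32, and the split of calls became 2 higher and 10 lower, with Ctsk, Ctsz, Cd68 and Neu1 no longer called. By role, both called proteases outside the cysteine class (Tpp1 and Ppt1) and both called sphingolipid genes (Asah1 and Gm2a) were lower, while the called membrane proteins Cd63 and Cd68 were higher. Macrophage marker genes were split as well, 2 higher and 5 lower of 11, with Csf1r at 1274 to 1804 in Vehicle and 17624 to 18458 in WT. The part of cell composition in these differences was not tested.

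Each treated ATM group had higher levels of many of the genes than the shared Vehicle libraries. In GLP1RA 18 were called (31.8% of all genes, 20.8% in the higher direction), in AntiIL17A 19 (35.5%, 22.4% higher) and in Combo 12 (26.4%, 14.1% higher), all of them higher than in Vehicle. By adjusted p alone the numbers were 29 (53.8% of all genes), 29 (58.1%) and 28 (48.7%). Median log2 fold changes over the 32 were 1.12, 1.39 and 0.70, and over all genes 0.19, 0.17 and 0.00. With library totals alone the medians were 1.34, 1.74 and 1.12 over the 32 and 0.41, 0.52 and 0.41 over all genes. All 4 other proteases or thioesterases and all 3 sphingolipid genes were called in each of the 3 comparisons. Of the 9 cysteine proteases 6, 7 and 2 were called, of the 7 glycosidases 4, 4 and 3, and of the 7 membrane proteins 1, 1 and 0, in GLP1RA, AntiIL17A and Combo. Neu1, which encodes a sialidase, was the lowest of the 32 in each, at -0.87 ± 0.08, -0.83 ± 0.08 and -0.87 ± 0.08. Of the 11 macrophage markers 7, 8 and 7 were called higher, and of the 9 neutrophil markers 9, 9 and 4 were called lower, in the same order. Their part in the higher lysosomal levels, and that of the other cell types given above, was not tested.

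Among the glycosidases in ATM, lysosomal alpha-mannosidase (Man2b1) trims N-glycans. Man2b1 counted 7625, 8497 and 7945 in WT, 2064, 1933 and 2062 in Vehicle, 14333, 14448 and 13422 in GLP1RA, 20068, 18408 and 17844 in AntiIL17A, and 12053, 11349.9 and 11968 in Combo. No groups overlapped, and Vehicle was lowest. Man2b1 fell by 1.99 ± 0.06 in Vehicle against WT (adjusted p = 1.06e-13) and rose against Vehicle by 2.80 ± 0.06 in GLP1RA, 3.22 ± 0.06 in AntiIL17A and 2.55 ± 0.06 in Combo, the largest rise among the 32 genes in each. Hexa followed the same order of groups. Hexa counted 9018, 9504 and 9048 in WT, 4363, 4349 and 3892 in Vehicle, 19799, 19351 and 18708 in GLP1RA, 29044, 28987 and 26771 in AntiIL17A, and 13023, 13202 and 15314 in Combo. Vehicle was lowest and AntiIL17A highest, without overlap. Hexa was -1.13 ± 0.06 in Vehicle against WT (adjusted p = 3.82e-10) and 2.20, 2.75 and 1.72 after treatment. Beta-glucuronidase (Gusb) degrades glycosaminoglycans. Gusb counted 2511, 2366 and 2593 in WT, 2336, 1987 and 1798 in Vehicle, 9705, 9464 and 8911 in GLP1RA, 14914, 15524 and 15294 in AntiIL17A, and 8964, 9151 and 8955 in Combo. Vehicle and WT were both low, Combo and GLP1RA overlapped, and AntiIL17A was highest. Gusb was -0.29 ± 0.07 in Vehicle against WT, within the fold limit (adjusted p = 0.00393), and rose by 2.20, 2.90 and 2.14.

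The 3 sphingolipid genes in ATM shared a low in Vehicle. Psap encodes prosaposin, the precursor of the saposins. Psap counted 93707, 101018 and 95574 in WT, 57913, 60389 and 56831 in Vehicle, 284748, 277427 and 275503 in GLP1RA, 350922, 364351 and 365576 in AntiIL17A, and 187961, 195234 and 199363 in Combo. The groups did not overlap, in the order Vehicle, WT, Combo, GLP1RA and AntiIL17A. Psap was -0.73 ± 0.03 in Vehicle against WT (adjusted p = 1.75e-11) and rose by 2.26 ± 0.03, 2.63 ± 0.03 and 1.73 ± 0.03 in GLP1RA, AntiIL17A and Combo. Gm2a encodes the GM2 activator protein, the partner of hexosaminidase. Gm2a counted 12705, 13518 and 12889.6 in WT, 2586, 3101 and 3107 in Vehicle, 13042, 13495 and 12968 in GLP1RA, 17314, 16724 and 16384 in AntiIL17A, and 14101, 14059.7 and 14070.4 in Combo. Vehicle lay far below the rest, and WT and GLP1RA overlapped. Gm2a had the largest fall of the 32 in Vehicle against WT, -2.15 ± 0.06 (adjusted p = 6.66e-14), and rose by 2.17, 2.52 and 2.26. Asah1 encodes acid ceramidase. Asah1 counted 7949, 9382 and 8805 in WT, 3974, 4378 and 4073 in Vehicle, 11214, 10967 and 12750.2 in GLP1RA, 13634, 14357 and 14387 in AntiIL17A, and 9956, 9800.5 and 9521 in Combo. Groups did not overlap, with Vehicle lowest. Asah1 fell by 1.07 ± 0.07 in Vehicle (adjusted p = 1.61e-09) and rose by 1.49, 1.77 and 1.24.

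Of the ATM proteases outside the cysteine class, Ctsd was the most abundant. Ctsd counted 54957, 54364 and 57284 in WT, 72812, 72537 and 73487 in Vehicle, 260784, 258188 and 252689 in GLP1RA, 343017, 343019 and 351561 in AntiIL17A, and 169807, 167539 and 169704 in Combo. WT was lowest, Vehicle next, and the treated groups lay well above, without overlap. Ctsd was 0.39 ± 0.02 in Vehicle against WT and rose by 1.82 ± 0.02, 2.25 ± 0.02 and 1.21 ± 0.02 in GLP1RA, AntiIL17A and Combo (largest adjusted p = 5.33e-16). Tripeptidyl peptidase 1 (Tpp1) removes tripeptides from the ends of proteins. Tpp1 counted 5846, 5838 and 6017 in WT, 2984, 2921 and 2782 in Vehicle, 7748, 8794 and 8416 in GLP1RA, 12616, 13386 and 12363 in AntiIL17A, and 7294, 6493 and 8046 in Combo. Vehicle was lowest, and Combo and GLP1RA overlapped below AntiIL17A. Tpp1 fell by 1.03 ± 0.07 in Vehicle (adjusted p = 5.31e-09) and rose by 1.52, 2.14 and 1.33. Palmitoyl-protein thioesterase 1 (Ppt1) removes fatty acids from proteins. Ppt1 counted 7265, 7403 and 7911 in WT, 2811, 2952 and 2416 in Vehicle, 6773, 6985 and 6607 in GLP1RA, 6957, 7993 and 8467 in AntiIL17A, and 6635, 6601 and 6072 in Combo. Vehicle alone stood low, and the treated groups lay near WT. Ppt1 fell by 1.46 ± 0.08 in Vehicle (adjusted p = 3.44e-10) and rose by 1.32, 1.52 and 1.24.

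Of the ATM cysteine proteases, Ctsk was among those called in all 4 comparisons. Ctsk counted 2513, 2089 and 2452 in WT, 5875, 4772 and 4531 in Vehicle, 21584, 23235 and 22358 in GLP1RA, 18920.2, 18377 and 19262 in AntiIL17A, and 12339.9, 11186 and 11591 in Combo. WT was lowest and GLP1RA highest, without overlap between groups. Ctsk rose by 1.11 ± 0.09 in Vehicle against WT (adjusted p = 2.37e-08) and further by 2.15, 1.90 and 1.21 against Vehicle. Ctsf was again low in Vehicle. Ctsf counted 2098, 2459 and 2580.1 in WT, 709, 519.6 and 471 in Vehicle, 2894, 2956 and 2608 in GLP1RA, 1981, 2082 and 1944 in AntiIL17A, and 1488, 1641 and 1442 in Combo. Vehicle lay below all others and GLP1RA above. Ctsf fell by 2.07 ± 0.14 in Vehicle (adjusted p = 2.64e-09) and rose by 2.31, 1.82 and 1.42, so that its directions were those seen in BM, where the Combo value was not called. Ctsb, Ctsl, Ctss and Lgmn shared 1 order of groups in ATM, with WT lowest and then Vehicle, Combo, GLP1RA and AntiIL17A. In GLP1RA against Vehicle, Ctsc (-0.16 ± 0.04) was the lowest of the cysteine proteases.

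Among ATM membrane proteins, Cd68 was the one called in both GLP1RA and AntiIL17A. Cd68 counted 8719, 8651 and 8674 in WT, 17294, 16764 and 18328 in Vehicle, 38642, 40251 and 37555 in GLP1RA, 52833, 55026 and 52033 in AntiIL17A, and 26981, 28811 and 28574 in Combo. Groups did not overlap, from WT to AntiIL17A. Cd68 rose by 1.01 ± 0.04 in Vehicle (adjusted p = 5.47e-12), by 1.15 in GLP1RA and by 1.61 in AntiIL17A, and in Combo it was 0.69, within the fold limit. Lamp1 counted 34170.1, 33466 and 34129.7 in WT, 33046, 34837 and 36395 in Vehicle, 59969, 59292 and 59042 in GLP1RA, 60806, 62325 and 63893 in AntiIL17A, and 40064, 39308 and 40872 in Combo. WT and Vehicle overlapped, and the treated groups lay above both. Lamp1 was 0.04 ± 0.03 in Vehicle against WT (adjusted p = 0.385) and 0.77, 0.84 and 0.21 against Vehicle. Tfeb counted 698, 682 and 709 in WT, 947, 597 and 738 in Vehicle, 780.4, 719 and 668 in GLP1RA, 1147, 1007 and 1098 in AntiIL17A, and 1049, 874 and 1051 in Combo. Neighbouring groups overlapped throughout. Tfeb gave 0.13 ± 0.15 in Vehicle against WT (adjusted p = 0.499), -0.07 ± 0.15 in GLP1RA (0.713), 0.51 ± 0.15 in AntiIL17A (0.0101) and 0.38 ± 0.15 in Combo (0.0522), and was called in none.

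The combination was also set against each single agent and against WT. In BM, Combo differed from AntiIL17A in 1 called gene, Ctsk (-1.49 ± 0.11, where 5.67% of all genes were called), and from GLP1RA in 4 (13.2%), with Ctsc higher (1.30) and Ctsf (-1.44), Ctsk (-1.22) and Lgmn (-1.19) lower. Against WT, 2 genes were called in BM Combo (14.3%), Ctsk lower (-1.78) and Gaa, the acid alpha-glucosidase, higher (1.02). In ATM, Combo lay below AntiIL17A in 27 of the 32 genes and above it in none by adjusted p alone, but passed the fold limit only for Ctsd (-1.03) and Hexa (-1.03), where 14.2% of all genes were called. By adjusted p alone 17.9% of all genes were lower in that comparison. Against GLP1RA only Gla was called (-1.08 ± 0.06, 18.7% of all genes). By adjusted p alone, Combo differed from WT, GLP1RA and AntiIL17A in 28 (73.3% of all genes), 28 (71.4%) and 23 (52.5%) of the 32 in BM and in 25 (41.1%), 26 (39.8%) and 27 (28.6%) in ATM. Against WT, 10 genes were called in ATM Combo (21.6%), all higher, from Psap (1.00) to Ctsk (2.32).

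Whether a comparison differed between tissues was tested as an interaction over the 13076 genes in both tables. For Combo against Vehicle, 18 of the 32 genes differed between tissues by adjusted p and by more than 1 on the log2 scale, all with the higher change in ATM, where 28.1% of all genes did. Ctsk had the largest difference, 3.79 ± 0.13 (adjusted p = 7.25e-19), having fallen in BM and risen in ATM. Ctss (3.02 ± 0.04), Lgmn (2.98 ± 0.06) and Ctsl (2.65 ± 0.04) followed. For Vehicle against WT, 11 genes differed (28.7% of all genes). Cd63 alone had the higher change in ATM (1.60 ± 0.05), and among the 10 with the lower change Man2b1 (-1.84 ± 0.06) and Gaa (-1.82 ± 0.14) were farthest from 0. The 2 tissues came from different cell preparations. For this test their libraries were scaled and fitted together, with a dispersion per gene shared by both tissues, although ATM libraries varied more. The differences can therefore depart from those of the separate fits. An interaction compares changes, not levels.

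**Figure D5:**
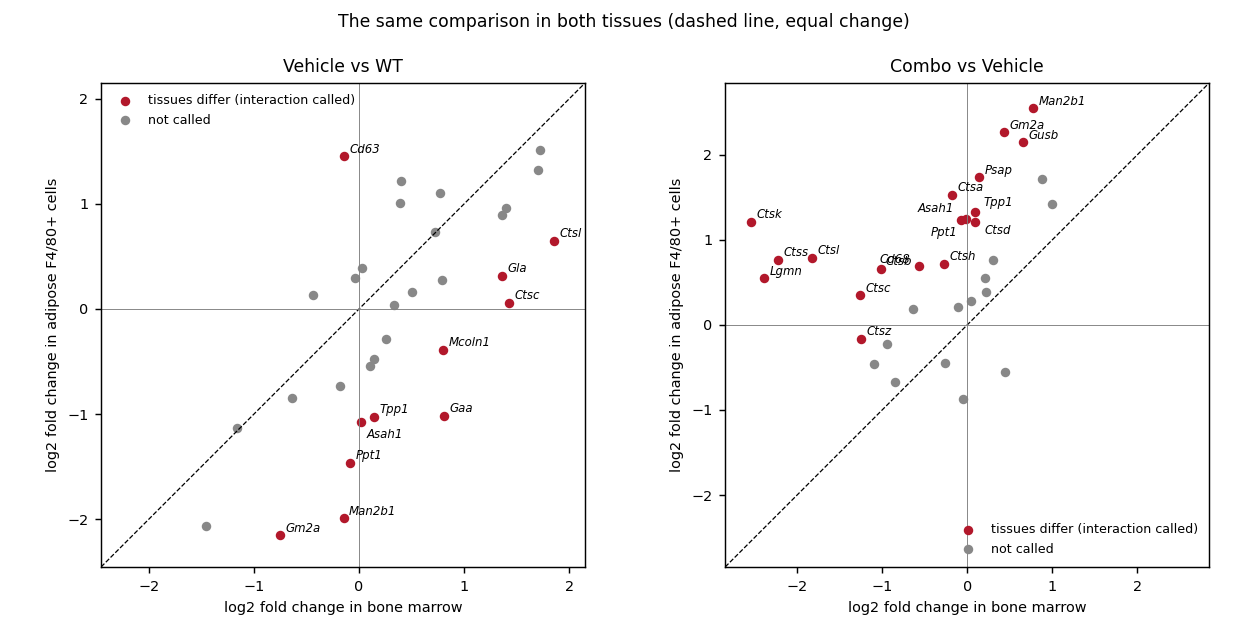
Log2 fold change in BM (x axis) against that in ATM (y axis) for the 32 lysosomal genes, in Vehicle against WT (left) and Combo against Vehicle (right), with a dashed line at equal change and red points where the tissues differed by the interaction test. In Combo against Vehicle, Ctsk, Ctss, Lgmn and Ctsl lay far above the diagonal, with differences from 2.65 to 3.79.

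Levels were also set between genes per exon length (RPKM, from the TMM-scaled library size). The length was that of all annotated exons of a gene joined, such as 1358 bases for Ctss and 6051 for Ctsb. It was not that of the transcripts present, so the order of genes depends on the annotation. In BM, Psap was the highest of the 32 in WT, GLP1RA, AntiIL17A and Combo (505 to 648), and Ctss was the highest in Vehicle (557, with Psap at 535). In ATM, Psap was the highest in WT (1063), and Ctsd was the highest in the other 4 groups, from 935 in Vehicle to 4433 in AntiIL17A. The genes were also split by the E-box CACGTG in their promoter windows. In AntiIL17A against Vehicle the median log2 fold change in ATM was 1.36 over the 11 genes with it and 1.55 over the 18 matched genes without it, and in Vehicle against WT in BM it was 0.34 and 0.32. In GLP1RA against Vehicle in BM the medians were -0.23 with it and -0.54 without it, and in Combo against GLP1RA in ATM -0.54 and -0.22. In Vehicle against WT in ATM, 2 of the 11 with it and 11 of the 18 without it were called, where 35.4% of all genes were called. In AntiIL17A against Vehicle in ATM these numbers were 6 and 10 (35.5% of all genes), and in GLP1RA against Vehicle 6 and 9 (31.8%). These values are descriptions, and no difference between the sets was tested.

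Other genes of the pathway were read from fixed lists. Of 28 other lysosomal hydrolases in ATM, 1 higher and 9 lower were called in Vehicle against WT, where 35.4% of all genes were called, and against Vehicle 19 higher and 0 lower in GLP1RA, 17 higher and 1 lower in AntiIL17A and 13 higher and 0 lower in Combo, where 20.8%, 22.4% and 14.1% of all genes were called higher. Lipa, the acid lipase, had the largest rise of that list in AntiIL17A (3.49 ± 0.06). In BM the same list gave 2 higher and 2 lower in Vehicle against WT, no more than the 19.5% of all genes. Of 16 proton pump subunits, 6 higher and 0 lower were called in ATM AntiIL17A against Vehicle, led by Atp6v0d2 (3.24), and 0 higher and 1 lower in BM Vehicle against WT. Of 11 genes for delivery to the lysosome, 6 higher and 0 lower were called in ATM AntiIL17A, with the sorting receptor gene Sort1 highest (2.23). Of 19 other lysosomal membrane proteins, 7 higher and 1 lower were called in that comparison, and of 14 MiT/TFE factors and mTORC1 docking genes 3 higher and 0 lower, the last near the 22.4% of all genes that were higher. The inhibitors of cathepsins, mostly stefins, took another course in ATM. Of 12, 8 higher and 0 lower were called in Vehicle against WT and 1 higher and 6 lower in AntiIL17A against Vehicle, beside 35.4% and 35.5% of all genes called in either direction, with a median of 3.47 and -2.57. Several stefins are near-identical copies, and the study counted uniquely mapped reads. Reads that match several copies would therefore be missing from these values. Summed neutrophil markers in ATM also stood higher in Vehicle (726456 to 769111) than in WT (15330 to 15834) and AntiIL17A (15132 to 15359). The part of neutrophils in the inhibitor values was not tested. In BM, Cstb, the gene for stefin B, was 1.43 ± 0.04 in Vehicle against WT and -1.90, -2.08 and -1.70 against Vehicle in the treated groups.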

How the data were processed

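RNA-seq of BM cells and sorted ATM was analysed from 2 tables of raw gene counts deposited by the authors, 1 per tissue. Per the study's methods and the submitters' processing notes, the authors aligned paired reads with STAR (2.7.2a) to mm10/GRCm38. They counted uniquely mapped reads per GENCODE gene with featureCounts (2.0.1), without use of strand. A read that overlapped more than 1 gene was counted for all of them. Antisense and overlapping genes can therefore share reads.

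The counts were fitted per tissue with edgeR 4.0.16 (R 4.3.3; TMM scaling, filterByExpr, robust quasi-likelihood F test) over all 15 libraries, with Benjamini-Hochberg adjustment over all genes. The filter removed 0 genes. A gene was called at an adjusted p below 0.05 and an absolute log2 fold change above 1. The difference between tissues was fitted as an interaction over the libraries of both tissues, scaled together. The SE was derived from the fold change and its F statistic. Exon lengths and overlaps came from the GENCODE annotation of GRCm38, and promoters from RefSeq. P-values rest on the spread between replicate libraries, estimated over all groups of a fit and moderated across genes. That the 3 libraries of a group are separate mice rests on the labels. Marker sums of other tissues lay close within groups, at 530932 to 544666 for epididymis in ATM WT and 31626 to 32276 for pancreas in ATM Combo. Every BM Vehicle library held both Xist (6339 to 6712) and Ddx3y (695 to 743). Whether the libraries of a group are separate mice or parts of a pool was not tested. The p-values hold only if the libraries are independent. For parts of a pool, p-values and SE would not measure the spread between mice.

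The 32 genes and the other gene lists were chosen with earlier results of these data known. Values in every library were given for up to 10 genes per tissue, those called in most of 4 comparisons (Vehicle against WT and each treated group against Vehicle), ties by the largest absolute fold change, plus Tfeb, Lamp1, Cd68 and Ctsd. Of other lists, counts and the genes with the largest change were given. Ctss and Lgmn promoters and Csf1r, Fcgr1, Cd14, Mrc1, Lyz2, Ddx3y and Cstb were named, and Lyz2 left out of the macrophage sum, after their values were seen. Alternatives were DESeq2 1.42.0, its size factors in edgeR, other filters, fits to 2 groups, a replicate block, leaving out each library and, chosen after seeing the data, library totals without scaling factors.

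Replicate numbers recur across groups. Deviations of same-numbered libraries from their group means correlated above 0.1 in 1 of 30 pairs in BM and 0 of 30 in ATM, so the numbers were not taken to pair the libraries.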

Additional observations from a re-analysis of the deposited data

Results flagged for a closer look

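The change between 2 groups differed between tissues for 11 lysosomal genes in Vehicle against WT and for 18 in Combo against Vehicle, by the edgeR interaction test over 13076 genes. Values are the log2 fold change in ATM minus that in BM in the joint fit of both tissues. In Vehicle against WT the ATM change was the lower for Ctsc (-1.36), Ctsl (-1.20), Tpp1 (-1.17), Ppt1 (-1.38), Gla (-1.04), Gaa (-1.82), Man2b1 (-1.84), Asah1 (-1.09), Gm2a (-1.40) and Mcoln1 (-1.18), and the higher for Cd63 (1.60). In Combo against Vehicle the ATM change was the higher for Ctsa (1.75), Ctsb (1.72), Ctsc (1.65), Ctsd (1.16), Ctsh (1.03), Ctsk (3.79), Ctsl (2.65), Ctss (3.02), Ctsz (1.13), Lgmn (2.98), Tpp1 (1.28), Ppt1 (1.29), Cd68 (1.29), Gusb (1.52), Man2b1 (1.81), Asah1 (1.35), Psap (1.63) and Gm2a (1.88). Of all genes, 28.7% and 28.1% differed between tissues in the same comparisons. Markers of neutrophils, macrophages, endothelial and stromal cells, adipocytes, erythroid cells, epididymis and pancreas also differed between the ATM groups. Their part in these values was not tested.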

How the results depend on the processing

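Without the fold limit, at an adjusted p below 0.05 alone, the number of lysosomal genes passing in BM was 29 in Vehicle against WT, 29, 26 and 28 in GLP1RA, AntiIL17A and Combo against Vehicle, and 28, 28 and 23 in Combo against WT, GLP1RA and AntiIL17A. In ATM it was 27, then 29, 29 and 28, and then 25, 26 and 27, in the same order. With library totals alone, chosen after seeing the data, the count became 4 in BM Combo against WT, 2 in BM Combo against AntiIL17A, and 0 in ATM Combo against GLP1RA and against AntiIL17A. The BM calls of Lgmn in GLP1RA (-0.97) and Ctsk in AntiIL17A (-0.88) against Vehicle were also lost there. Leaving out 1 library gave 1 to 3 called genes in BM Combo against WT, with 1 without Combo replicate 2, and 1 to 2 in ATM Combo against AntiIL17A, with 1 without Combo replicate 1 or 2. The gene at the limit was Gaa in the former and Hexa in the latter. Calls close to the limit were also lost in ATM Vehicle against WT for Gaa (-0.85 without Vehicle replicate 2 and -0.98 without WT replicate 2), Ctsk (0.98 without Vehicle replicate 1) and Cd68 (0.97 without Vehicle replicate 3), in GLP1RA against Vehicle for Ctsh without Vehicle replicate 3 and Gaa without Vehicle replicate 2, and in Combo against WT for Psap without WT replicate 1 or 3 or Combo replicate 3. Directions reversed only for genes that were not called. Over all 7 comparisons this befell 35 values in BM and 20 in ATM under library totals alone, 17 in each tissue over all fits that left out 1 library, 4 in BM and 1 in ATM at a minimum of 10 counts, 3 in BM and 1 in ATM in fits to 2 groups, and 1 in ATM under each of both DESeq2 settings. Those that had passed by adjusted p in Vehicle against WT or in a treated group against Vehicle did so under library totals alone. In BM they were Ctsa in Vehicle against WT (-0.021) and, in GLP1RA against Vehicle, Ctsa (0.016), Ctsd (0.089), Tpp1 (0.036), Gaa (0.071), Asah1 (0.014), Psap (0.15) and Cln3 (0.14). In ATM they were Ctsd (-0.045), Lamp2 (-0.28) and Gla (-0.12) in Vehicle against WT, Ctsc (0.058) in GLP1RA and Ctsz (0.25) in Combo against Vehicle. Beyond these scaling effects the cause was not tested. With the replicate block, all 42 BM calls and all 76 ATM calls were kept (9 genes in BM Vehicle against WT and 14 in ATM), and it changed no other call. DESeq2 kept 42 of the BM calls and 74 of the ATM calls. The smallest count of a lysosomal gene was 28 in BM and 315 in ATM. The deposited counts held no gene with a total below 55 in BM or 54 in ATM. They therefore cannot show whether depth limited detection.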
